A study of Homo sapiens with 8 samples.

Results

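Replication origins on human chromosome 13 are described here: every origin that lies on chr13 in the 3 deposited tables of short nascent strand reads. Chr13 held 902 of the 42162 origins compared between WT and *ORC1Δ* cells, 821 of 44174 between WT and *ORC2Δ*, and 913 of 46467 between WT and *ORC5Δ*, counted over chromosomes 1 to 22, X and Y. The lists of origins per line placed 534 of 30197 WT origins on chr13, 726 of 33535 in *ORC1Δ*, 651 of 37813 in *ORC2Δ* and 791 of 41332 in *ORC5Δ*. The chromosome was selected on its values in these same tables, so its levels and folds are a description and carry no test.

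SNS-seq, which sequences short nascent strands kept after size selection and λ exonuclease digestion, was performed on HCT116 cells, an epithelial colon cancer line, with 2 biological replicates for each of 4 lines and 8 samples in all. All 4 lines lack p53 (HCT116 p53−/−); WT has intact ORC genes, and *ORC1Δ*, *ORC2Δ* and *ORC5Δ* (ORC1KO, ORC2KO and ORC5KO in the labels) were inactivated for ORC1, ORC2 or ORC5 with CRISPR–Cas9. No drug or time course was applied, and each subunit is represented by a single knockout line, so the lost subunit and any other property of that line cannot be told apart. The deposited tables merge the replicates into 1 read count per origin and line, which leaves no replicate spread to set a difference against.

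In human cells the origin recognition complex, ORC, binds chromatin and loads the MCM2–7 helicase in G1, and a small part of the loaded helicases fires as origins in S phase. Chromosome 13 is acrocentric: its short arm carries ribosomal DNA and satellite repeats, and its long arm alternates gene-rich bands with some of the most gene-poor, AT-rich stretches of the genome. The long arm holds RB1, the retinoblastoma cell cycle repressor, and BRCA2, a mediator of homologous recombination, and extra copies of it are common in colorectal cancer. A nascent strand read count rises both with the number of DNA copies and with how often an origin fires per copy, and these cannot be told apart here.

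The sequences of the chr13 origins that carry the results are shown first, as the central 150 bases of each, read from the plus strand of hg38, with runs of 3 or more C or G in capitals. The first is the origin with the most WT reads, and the next 3 are the origins highest in all knockout lines. The following 3 are those lowest in all lines, and the last 3 are the origins on either side of the step found in *ORC2Δ* and the origin highest in *ORC2Δ*. The last was chosen after its values were seen.
most WT reads, chr13:113565000-113565149: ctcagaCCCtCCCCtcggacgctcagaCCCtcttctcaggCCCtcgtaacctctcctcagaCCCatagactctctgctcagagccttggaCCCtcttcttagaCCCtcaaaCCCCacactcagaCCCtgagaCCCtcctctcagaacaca
highest in all lines, chr13:27338415-27338564: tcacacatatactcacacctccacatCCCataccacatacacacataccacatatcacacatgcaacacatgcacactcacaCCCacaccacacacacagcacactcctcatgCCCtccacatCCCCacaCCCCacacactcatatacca
highest in all lines, chr13:18956452-18956601: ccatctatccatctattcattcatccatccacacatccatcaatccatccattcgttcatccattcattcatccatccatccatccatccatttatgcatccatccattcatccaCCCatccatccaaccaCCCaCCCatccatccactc
highest in all lines, chr13:20718749-20718898: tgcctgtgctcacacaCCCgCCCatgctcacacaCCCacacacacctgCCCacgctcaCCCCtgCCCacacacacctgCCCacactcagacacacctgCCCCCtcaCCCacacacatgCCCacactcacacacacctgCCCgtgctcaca
lowest in all lines, chr13:80420398-80420547: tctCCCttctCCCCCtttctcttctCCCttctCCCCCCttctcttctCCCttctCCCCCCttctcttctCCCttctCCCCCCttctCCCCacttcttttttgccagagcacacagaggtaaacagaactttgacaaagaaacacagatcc
lowest in all lines, chr13:77638707-77638856: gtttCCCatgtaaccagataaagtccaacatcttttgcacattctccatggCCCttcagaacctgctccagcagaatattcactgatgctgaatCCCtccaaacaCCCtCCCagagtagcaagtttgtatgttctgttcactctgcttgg
lowest in all lines, chr13:99823930-99824079: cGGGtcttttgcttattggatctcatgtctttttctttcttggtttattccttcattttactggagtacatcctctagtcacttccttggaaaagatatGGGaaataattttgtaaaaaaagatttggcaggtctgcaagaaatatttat
last origin before the step in *ORC2Δ*, chr13:111434951-111435100: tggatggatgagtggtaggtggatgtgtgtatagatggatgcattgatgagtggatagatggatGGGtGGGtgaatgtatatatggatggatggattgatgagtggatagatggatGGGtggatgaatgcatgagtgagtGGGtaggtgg
first origin after the step in *ORC2Δ*, chr13:111440772-111440921: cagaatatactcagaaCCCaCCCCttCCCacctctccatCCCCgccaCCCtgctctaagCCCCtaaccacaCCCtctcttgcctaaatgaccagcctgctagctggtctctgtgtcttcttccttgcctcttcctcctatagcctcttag
highest in *ORC2Δ*, chr13:23558440-23558589: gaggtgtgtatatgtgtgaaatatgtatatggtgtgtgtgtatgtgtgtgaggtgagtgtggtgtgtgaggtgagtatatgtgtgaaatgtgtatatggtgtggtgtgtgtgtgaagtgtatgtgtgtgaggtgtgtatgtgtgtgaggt

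Several of these origins were tandem repeats with most of their G on one strand. The word CCAT made up 9.80% of all 4-base words of the origin at chr13:18955766-18957288. The GC skew, (G − C) / (G + C), was −0.75, −0.84 and −0.62 in the 3 origins highest in all lines. The lowest origins were mixed: chr13:80420138-80420808 was a polypyrimidine repeat with a GC skew of −0.63, and chr13:99823837-99824172, inside CLYBL, had a GC skew of −0.04.

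The origin with the most WT reads, chr13:113564232-113565918, lay outside coding genes 18803 bp from the start of TFDP1, the dimerization partner of E2F transcription factors. It had 133 RPM (reads in the origin, scaled to the sum over all origins of that line and table) in WT against 156 in *ORC1Δ*, 127 against 113 in *ORC2Δ*, and 123 against 134 in *ORC5Δ*. The WT value differs between tables because each table scales to its own set of origins. On the log2 scale the folds over WT were 0.23, −0.17 and 0.12, with 95% Clopper–Pearson intervals of 0.10 to 0.36, −0.30 to −0.03 and −0.01 to 0.25. These intervals, here and below, cover counting error only, since PCR reads are not independent molecules.

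The next most read origins were chr13:112209528-112210674, 142379 bp from the start of SOX1, and chr13:112713705-112715721, inside ATP11A, a phospholipid flippase gene. The former had 118 RPM in WT and 76.8 in *ORC2Δ*, a log2 fold of −0.62 (−0.78 to −0.46). The latter, also the widest WT origin at 1766 bp on the WT list, had 105 RPM in WT and 67.5 in *ORC2Δ*, a log2 fold of −0.64 (−0.80 to −0.47). In *ORC1Δ* the folds were −0.17 and −0.015, and in *ORC5Δ* −0.063 and −0.0055. The other widest WT origins were the most read one (1613 bp) and chr13:112722143-112723623 (1480 bp), also inside ATP11A. All 3 lie near the end of the long arm.

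Reads in origins summed to 6416892 for WT and 6691088 for *ORC1Δ*, 6640888 and 7808290 for WT and *ORC2Δ*, and 6878409 and 8523971 for WT and *ORC5Δ*. A chr13 origin had a median of 98 to 100 WT reads, with a range of 19 to 856 over the 3 tables, and the median of the other autosomes was 110.5 to 114. A property of the lists bears on chr13. No WT origin of the list lies more than 26017 bp from its nearest neighbour, and the same limit was 25683, 21839 and 20458 bp for *ORC1Δ*, *ORC2Δ* and *ORC5Δ*. The lists therefore hold clustered origins alone, with a limit that differs by line, so that an isolated peak is not counted as an origin here.

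WT origins were sparse on chr13. The list held 5.45 origins per Mb of sequence (95% Poisson interval 5.00 to 5.93), against 11.0 per Mb over the other autosomes, and chr13 was second lowest of the 22 autosomes in each of the 4 lines. Chr13 is also AT-rich: its 1 Mb windows had a median GC content of 38.3%, against 40.2% elsewhere. Windows of the other autosomes weighted to the same GC content held 5.20 WT origins per Mb, beside 5.24 in the same windows of chr13, a ratio of 1.01. The density of chr13 was thus close to that of sequence with its base composition.

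The density varied widely along the chromosome. In steps of 5 Mb, numbered from the end of the short arm, the highest WT densities were 34.7 per Mb in step 23, the end of the long arm with 35 coding genes in 4.20 Mb, 10.2 in step 4, the first step with known sequence, and 10.0 in step 6. The lowest were 0.4 in step 14, 0.8 in step 13 and 0.808 in step 18, which hold 2, 5 and 2 coding genes. GC-matched windows of other autosomes gave 32.3 per Mb for step 23 and 0.753 for step 14. Step 4, with 3.83 Mb of sequence, stood above its GC-matched value, 10.2 against 5.66 per Mb. How uniquely reads map in that step was not tested.

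**Figure D1:**
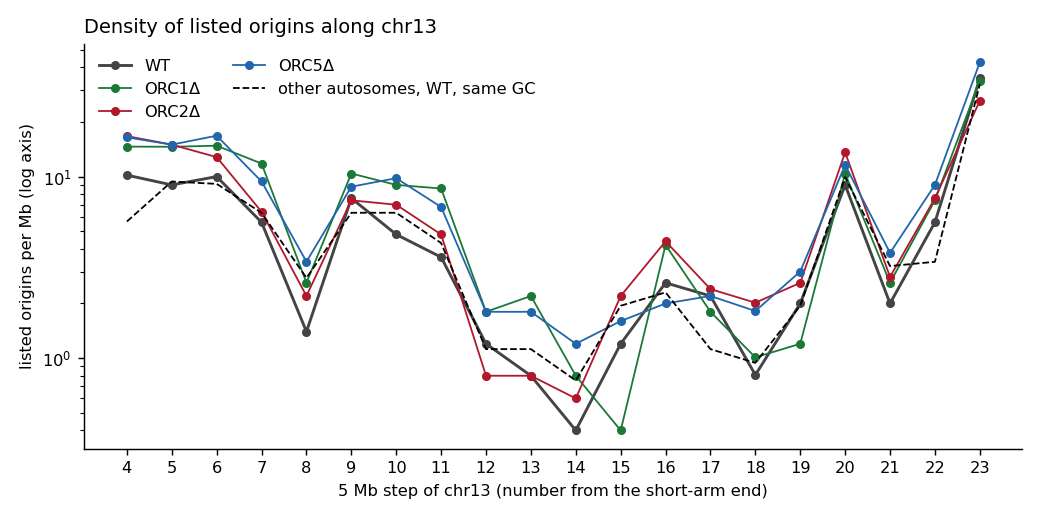
Listed origins per Mb (log axis) in each 5 Mb step of chr13 for the 4 lines, with the WT density of other autosomes at the same GC content as a dashed line. WT falls from 10.2 per Mb in step 4 to 0.4 in step 14 and reaches 34.7 in step 23, where *ORC2Δ* has the lowest value of the 4 lines, 26.2.

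The WT origins of chr13 formed 189 clusters, of which 125 held 2 origins. The largest held 24 origins in 201 kb, chr13:113954913-114155885, over C13orf46, CFAP97D2 and RASA3, a GTPase activator of Ras family proteins. The largest cluster of *ORC1Δ* (20 origins) and of *ORC5Δ* (16) also lay in the distal 1 Mb, over RASA3 and over GRK1, TMEM255B and GAS6. That of *ORC2Δ* held 14 origins and lay at the other end, chr13:18746754-18805454. The longest stretch without a WT origin ran for 5.71 Mb through PCDH9, a protocadherin gene, and KLHL1 into DACH1, a developmental transcription factor gene. In *ORC1Δ* the stretch ran on to 7.02 Mb and also took in MZT1, BORA, DIS3, PIBF1 and KLF5.

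Chr13 origins were less often tied to genes than origins elsewhere. Of the WT origins 44.2% overlapped a coding gene, against 60.1% on the other autosomes, 8.24% against 13.8% lay within 2 kb of a coding gene start, and 8.61% against 17.8% touched a coding exon. The WT origins had a median GC content of 52.8% (54.9% elsewhere), far above the chromosome's own, and a median width of 519.5 bp (525 bp). A G-quadruplex motif, 4 or more runs of GGG or of CCC with loops of 1 to 7 bases on either strand, was found in 49.8% of them against 56.5%, and 13.5% against 11.8% met the criteria of a CpG island. Repeats of ATCC or its rotations (4 or more copies, either strand) were found in 5 WT origins, 0.936% against 2.09%. The median GC skew, taken without its sign (the absolute skew below), was 0.343 on chr13 and 0.341 elsewhere.

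In total, chr13 took more reads in *ORC1Δ*, fewer in *ORC2Δ* and nearly the same share in *ORC5Δ*. Its origins summed to 18082 RPM in WT and 19528 in *ORC1Δ*, a log2 fold of 0.11 (95% interval 0.10 to 0.12). They summed to 16462 in WT and 14822 in *ORC2Δ*, a log2 fold of −0.15 (−0.16 to −0.14). In *ORC5Δ* the sums were 17196 and 17238, a log2 fold of 0.0035 (−0.0076 to 0.015). The 3 folds share their WT reads, and the difference between lines was not tested.

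The median chr13 origin had a log2 fold of 0.14 in *ORC1Δ*, −0.10 in *ORC2Δ* and −0.0076 in *ORC5Δ*. In *ORC1Δ* the median fold of the other autosomes went from 0.23 at a GC content of 40% to 45% to −0.32 at 65% or more, so each autosome was set against the others at matched GC content, in bins of 2 percentage points. The difference for chr13 was then 0.107 in *ORC1Δ*, second highest of the 22 autosomes after chromosome 8 (0.123). It was −0.0726 in *ORC2Δ*, the lowest of the 22, with chromosome 8 next at −0.0665. In *ORC5Δ* it was −0.0071, rank 5 from the lowest, in a range from −0.03 to 0.04.

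**Figure D2:**
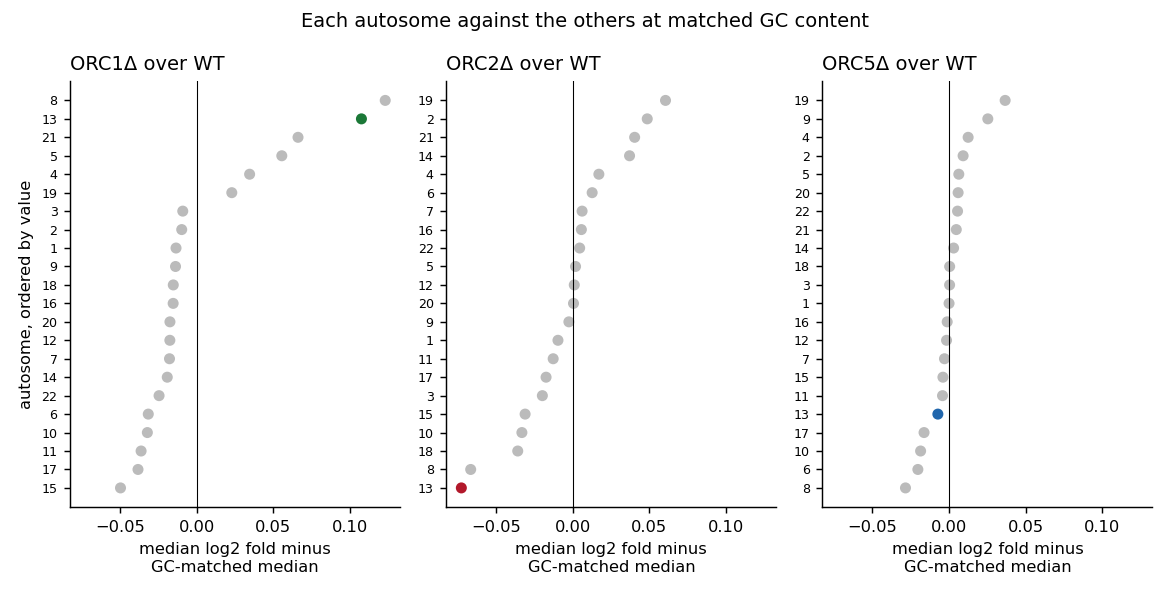
Median log2 fold of the origins of each autosome minus the median of the other autosomes at matched GC content, for each knockout line over WT, with chr13 in colour. Chr13 is second from the top in *ORC1Δ* (0.107), at the bottom in *ORC2Δ* (−0.0726) and near 0 in *ORC5Δ* (−0.0071).

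Calls at 1.5-fold, the threshold of the study's methods, followed the same order. In *ORC1Δ* 99 of the 902 chr13 origins were upregulated, 11.0% against a background of 7.04% over all origins, and 22 were downregulated, 2.44% against 3.95%. In *ORC2Δ* 29 of 821 were upregulated, 3.53% against 4.66%, and 113 were downregulated, 13.8% against 3.58%. In *ORC5Δ* 24 of 913 were upregulated, 2.63% against 2.08%, and 5 were downregulated, 0.548% against 0.68%. The rule that picked the chromosome used these contrasts, so nothing is read from the shares beyond their size.

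The chromosome did not move as a whole. For each line, the single split along the chromosome that left the least absolute deviation from 2 medians was found, with at least 20 origins on each side, after the values were seen. In *ORC1Δ* the split fell in the gene desert between chr13:66231314 and chr13:71866549. In *ORC2Δ* it fell within 4874 bp, between chr13:111435455 and chr13:111440330. The origins before the former are called proximal below, those between both splits middle and those after the latter distal. On GC-adjusted folds the *ORC2Δ* split stayed at the same pair of origins, whereas that of *ORC1Δ* moved to the stretch between chr13:54941491 and chr13:55582164.

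**Figure D3:**
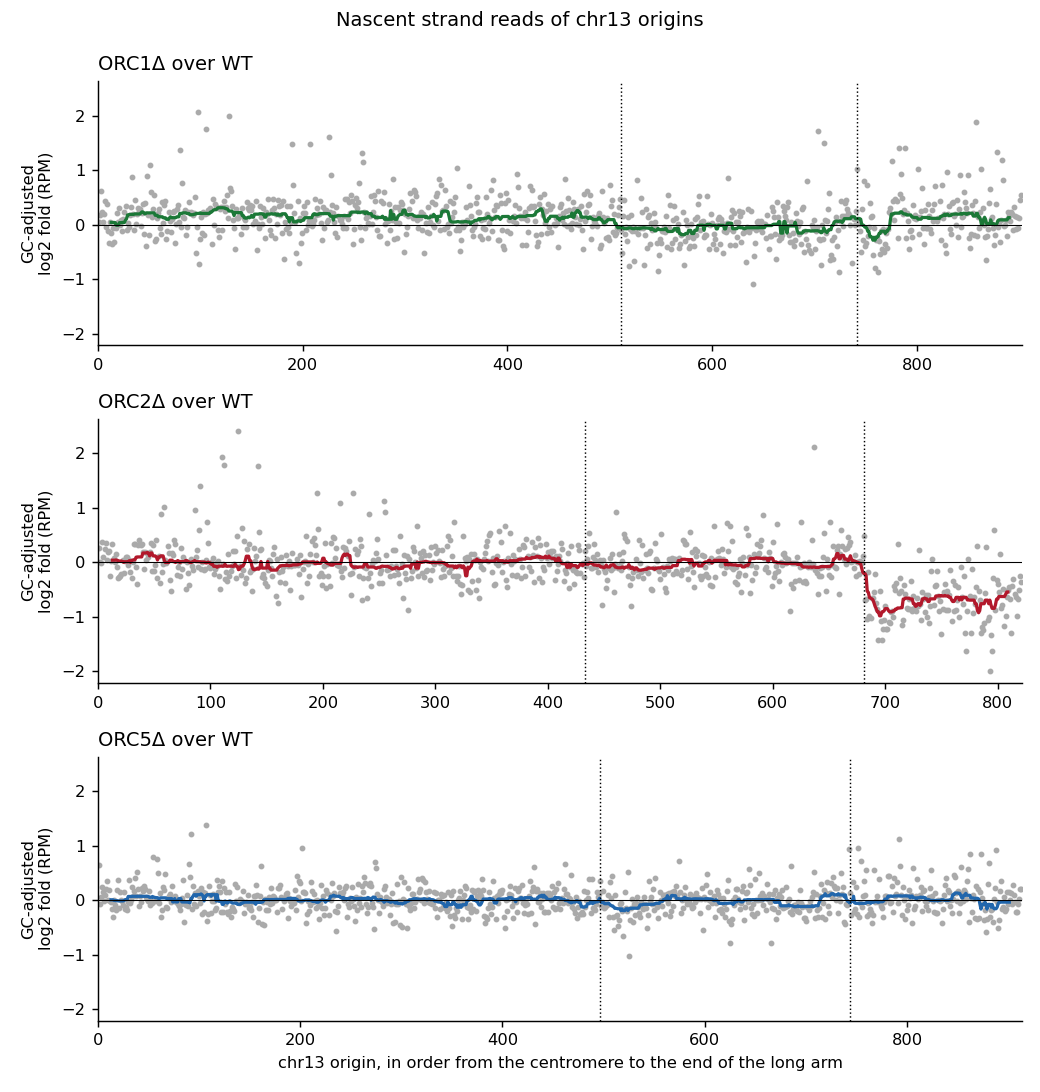
GC-adjusted log2 fold of every chr13 origin (points) in order along the chromosome, with a running median of 25 origins (line), for each knockout line over WT; dotted lines mark the bounds of the proximal, middle and distal segments. The *ORC1Δ* line runs above 0 through the proximal segment, and the *ORC2Δ* line drops at the start of the distal segment. *ORC5Δ* has no such drop there, though its GC-adjusted medians are −0.20, −0.15 and −0.15 in steps 16, 17 and 18 of the middle segment.

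The proximal segment was higher in *ORC1Δ*. Its 510 origins had a median log2 fold of 0.24, and 396 of them (77.6%) were above 0. GC-matched origins of the other autosomes had a median of 0.07, so the difference was 0.17. The middle segment, 231 origins with the same GC content (48.9% against 48.3%), had a median of −0.0024 and a difference of −0.07. The summed reads gave log2 folds of 0.22 (0.20 to 0.24) for the proximal segment and 0.0020 (−0.022 to 0.026) for the middle one. In *ORC2Δ* and *ORC5Δ* the proximal medians were −0.02 and 0.0075.

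The higher proximal reads in *ORC1Δ* were seen in steps 4 to 11, whose GC-adjusted medians ran from 0.08 in step 9 to 0.22 in step 5. Proximal origins with fewer WT reads than the chr13 median had 0.33 (285 origins) and the others had 0.15 (225). The middle segment showed the same order, with 0.12 (116 origins) and −0.12 (115). WT reads are the denominator of the fold, so these classes are not independent of it. Proximal origins in coding genes away from a start had 0.28 before and 0.22 after GC adjustment (183 origins). Those outside coding genes had 0.23 before and 0.13 after it (300). The 27 within 2 kb of a start had −0.03 before and 0.13 after GC adjustment. Which line called an origin moved with the fold: the 249 called in *ORC1Δ* alone had 0.42, the 190 called in both lines 0.14, and the 71 called in WT alone −0.06. The call and the fold rest on the same reads, so the classes called in 1 line are not independent of the fold. Of the 249 called in *ORC1Δ* alone 18 were below 0, and of the 71 called in WT alone 28 were above 0.

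The distal segment was lower in *ORC2Δ*, and by far more. Its 140 origins had a median log2 fold of −0.74 (95% interval of the median −0.86 to −0.68), and 133 of them (95%) were below 0. That interval covers the choice of origins only and treats neighbouring origins as independent. The segment was bounded on these same folds, so its values, here and below, describe it and test nothing. Its WT and *ORC2Δ* reads were 31208 and 23569, a log2 fold of −0.64 (−0.66 to −0.61) after scaling. GC-matched origins of the other autosomes had a median of −0.06, so the difference was −0.68. Of the 113 downregulated chr13 origins in *ORC2Δ*, 98 lay in the distal segment, and no distal origin was upregulated. In *ORC1Δ* and *ORC5Δ* the distal medians were −0.04 and −0.02, and 75 of 161 and 80 of 170 origins were above 0. GC-matched origins of the other autosomes had −0.14 and −0.02 in these lines, so the differences were 0.10 and 0.0067. In *ORC1Δ* the distal segment was thus also above GC-matched origins, though by less than the proximal one.

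The step was sharp at the resolution of the origins. The last 10 origins before it had log2 folds of −0.30 to 0.45 in *ORC2Δ*, with 7 below 0, and the first 10 after it had −1.09 to −0.23, with all 10 below 0. Summed over the 10, reads went from 1757 in WT and 2055 in *ORC2Δ* before the step to 1835 and 1316 after it, log2 folds of −0.01 (−0.10 to 0.09) and −0.71 (−0.82 to −0.61). The corresponding sums after the step were −0.10 (−0.20 to 0.0083) in *ORC1Δ* and −0.05 (−0.14 to 0.05) in *ORC5Δ*. The 2 origins that flank it, chr13:111434583-111435469 and chr13:111440311-111441383, lie outside coding genes, 118399 and 124127 bp from the nearest coding gene start, that of TEX29. The one before had 15.5 RPM in WT and 21.3 in *ORC2Δ* (log2 fold 0.45), and the one after 29.4 and 17.5 (−0.74).

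**Figure D4:**
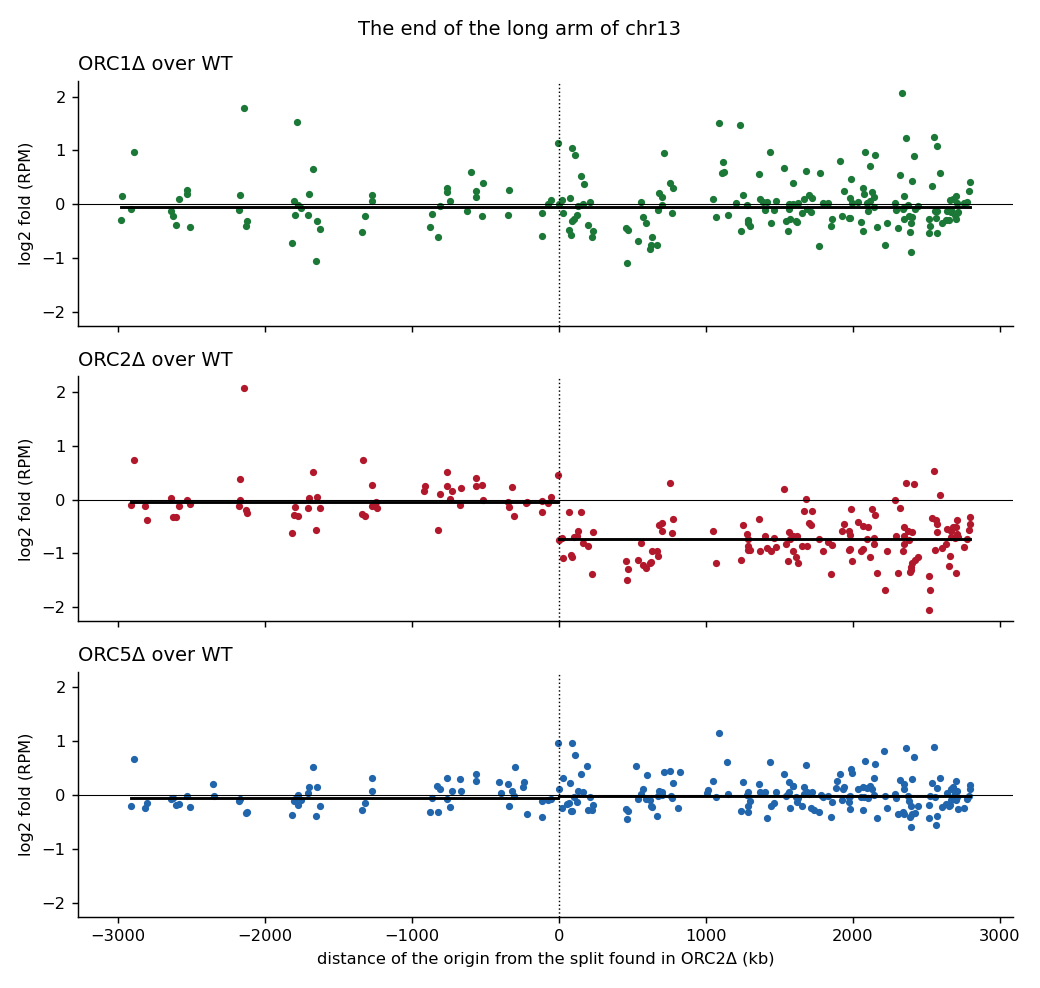
Log2 fold of chr13 origins against their distance in kb from the step found in *ORC2Δ*, for each knockout line over WT; black bars are medians of the origins drawn on each side. In *ORC2Δ* the median goes to −0.74 past the step, with 133 of 140 origins below 0, and the other lines show no such step.

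The median of the distal origins in *ORC2Δ* was below 0 in each class of origin examined, with 2 milder classes. Medians were −0.67 for GC contents of 45% to 55% (27 origins) and −0.77 for 55% or more (108). They were −0.72 within 2 kb of a coding gene start (15 origins), −0.74 elsewhere in coding genes (80) and −0.79 outside them (45). Origins called in both lines had −0.62 (73 origins), and those called in WT alone −1.06 (59). The milder classes were the 8 origins called in *ORC2Δ* alone, with −0.097, and the 17 with an absolute skew of at least 0.6, with −0.28. The call and the fold rest on the same reads, so the classes called in 1 line are not independent of the fold. In the proximal segment origins called in *ORC2Δ* alone had 0.11 (173 origins) and those called in WT alone −0.30 (80). Of the 7 distal origins above 0 in *ORC2Δ*, 5 had an absolute GC skew of 0.79 or more, the highest being chr13:113988759-113989793 in RASA3, with 24.8 RPM in WT and 36.0 in *ORC2Δ* (log2 fold 0.53, 0.25 to 0.82).

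Within the distal segment the first 26 origins, up to chr13:112113038, had a median of −0.997 in *ORC2Δ*, and the other 114, from chr13:112119958, −0.71. All 26 were below 0, 24 of them at 1.5-fold or more. The same first part was also the lowest of the distal segment in *ORC1Δ*, with −0.27 over 31 origins (difference from GC-matched origins −0.19), against −0.0024 (0.15) for the second part. In *ORC5Δ* the medians were −0.07 and −0.0037. The 3 tables share their WT reads, so these values are not independent of each other.

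Coding genes of the distal segment were all on the low side in *ORC2Δ*. Of its 26 coding genes, 21 had at least 1 origin in the *ORC2Δ* table. Each of the 21 had a summed log2 fold below 0 with its interval below 0, and 15 were at 1.5-fold or more. The genes lie in a segment bounded on the same folds, so these counts are no separate support. The median over the 21 was −0.69, against 0.01 over 20 genes in *ORC1Δ* and 0.0017 over 21 genes in *ORC5Δ*. ATP11A had 2847 WT and 2014 *ORC2Δ* reads over 11 origins (−0.73), and RASA3 4511 and 3658 over 14 (−0.54). The lowest was C13orf46, with 324 and 118 reads over 3 origins (−1.69), and the mildest F7, coagulation factor VII, with 507 and 526 reads over 2 (−0.18).

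Leaving out the distal segment, the chr13 median in *ORC2Δ* differed from GC-matched origins by −0.0052, ninth from the lowest of the 22 autosomes, and 15 origins were downregulated. The summed reads then had a log2 fold of 0.0051. In *ORC1Δ* the difference was 0.107 with and 0.111 without the distal segment. Among 537 steps of 5 Mb of the autosomes with at least 10 origins, step 23 of chr13 was seventh from the lowest in *ORC2Δ* at −0.60 after GC adjustment. Of the lower steps, 5 were on chromosome 6 and 1 on chromosome 18.

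The middle segment had medians close to 0, though some of its steps ranked low among the autosomes. The medians were −0.0024 in *ORC1Δ*, −0.05 in *ORC2Δ* and −0.03 in *ORC5Δ*, with differences from GC-matched origins of −0.07, −0.03 and −0.04. After GC adjustment, *ORC5Δ* steps 16, 17 and 18 had medians of −0.20, −0.15 and −0.15 over 15, 13 and 11 origins, at ranks 3, 5 and 6 from the lowest of 539 autosomal steps. In that line 7 steps of chr13 were in the lowest 10%, against 3 in *ORC1Δ* and 2 in *ORC2Δ*. Among the 7 were the proximal steps 12 and 13, with −0.13 and −0.12 at ranks 9 and 11. The highest 10% held 2 steps of chr13 in *ORC5Δ*, 8 in *ORC1Δ* and 3 in *ORC2Δ*. In *ORC1Δ* step 19 had −0.21 over 14 origins, rank 11 of 536. Before GC adjustment, the extremes of the *ORC1Δ* medians were step 14 (0.44, 4 origins) and step 15 (−0.15, 8 origins). In *ORC2Δ* they were step 4 (0.08, 69 origins) and step 23 (−0.67, 172 origins). In *ORC5Δ* they were step 14 (0.11, 6 origins) and step 16 (−0.18, 15 origins).

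**Figure D5:**
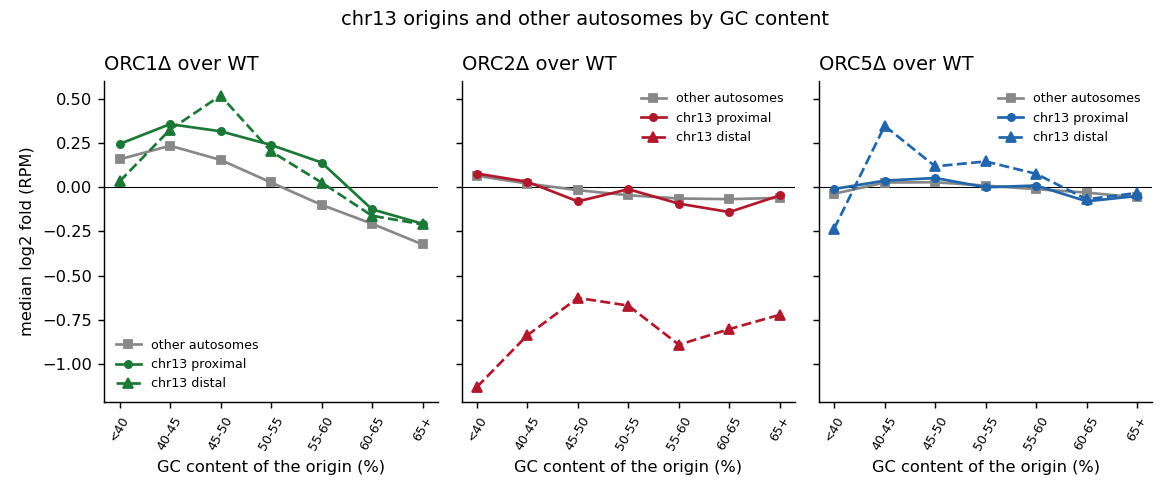
Median log2 fold of origins by GC content for the other autosomes (squares), the proximal (circles) and the distal segment of chr13 (triangles, dashed), for each knockout line over WT. The proximal segment lies above the other autosomes in every GC class in *ORC1Δ*, and the distal segment lies at −0.63 or lower in every class in *ORC2Δ*; the lowest GC classes of the distal segment hold 2 to 6 origins.

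The origin lists give the peak calls on their own. Of the 534 WT origins of chr13, 357 (66.9%, Wilson interval 62.8% to 70.7%) were overlapped by an *ORC1Δ* origin, 362 (67.8%, 63.7% to 71.6%) by an *ORC2Δ* origin and 410 (76.8%, 73.0% to 80.2%) by an *ORC5Δ* origin. GC-matched WT origins of the other autosomes were shared at 69.8%, 77.2% and 81.0%. The background of WT origins without a counterpart was 28.9%, 21.4% and 17.4% over all WT origins. All 3 knockout lines had a counterpart for 266 chr13 WT origins (49.8%, against 60.6% elsewhere), and none did for 57 (10.7%, against 8.15%). The low density of chr13 and the different neighbour limits of the lists move with these shares, and their part was not tested.

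Sharing differed by segment. In the distal segment 55.3% of 132 WT origins had a counterpart in *ORC2Δ* (46.8% to 63.5%), against 72.7% in *ORC1Δ* and 84.1% in *ORC5Δ*. The *ORC2Δ* list held 82 distal origins, 0.621 times the WT number, although it held 1.35 times the WT number in the proximal segment. In *ORC1Δ* the proximal segment held 439 origins, 1.68 times the 261 of WT, and the middle segment 161, 1.14 times. The middle segment was also where *ORC1Δ* shared least, 50.4% of 141 WT origins (42.2% to 58.5%). Of the chr13 origins of *ORC1Δ*, 368 of 726 (50.7%) had no WT counterpart, against 41.2% for GC-matched origins elsewhere.

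Of 609 chr13 loci present in all 3 tables, 6 were upregulated in all 3 lines (0.985%, background 1.6%) and 1 was downregulated in all 3 (0.164%, background 0.144%). Both shares lay close to their background. Of the 609 loci, 24 were upregulated in *ORC1Δ* and none of these was downregulated in *ORC2Δ*, while 179 were above 0 in *ORC1Δ* and below 0 in *ORC2Δ*. The share over all loci was not computed for these counts, so nothing is read from them. The 24 differ from the 99 upregulated origins given above because only loci present in all 3 tables count here. The locus highest by its least fold over the lines, chr13:27338244-27338736, 67414 bp from the start of RASL11A, had 6.70 RPM in WT and 20.2 in *ORC1Δ*, 6.17 and 14.6 in *ORC2Δ*, and 5.96 and 11.7 in *ORC5Δ*. It was on the lists of the 3 knockout lines but not of WT. The next was chr13:18955766-18957288, beside the centromere, with 34.9 RPM in WT and 65.1 in *ORC2Δ*, and log2 folds of 1.14, 0.90 and 0.83. The third was in IL17D, an interleukin gene, with log2 folds of 1.20, 0.97 and 0.82.

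The lowest locus in all lines was the polypyrimidine repeat chr13:80420138-80420808, 79012 bp from the start of SPRY2, an inhibitor of growth factor signalling. It had 31.0 RPM in WT and 18.7 in *ORC1Δ*, 30.0 and 16.8 in *ORC2Δ*, and 28.9 and 14.4 in *ORC5Δ*. The log2 folds were −0.73, −0.84 and −1.004, and each interval lay at −0.40 or lower. The loci in SCEL and CLYBL followed, with folds between −0.89 and −0.50.

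The highest origin of each line had nearly all its G on the plus strand. In *ORC2Δ* chr13:23558216-23558814 went from 21 WT reads to 133 (log2 fold 2.43). In *ORC1Δ* the highest was chr13:21936323-21936827, with 21 and 96 reads (2.13), and in *ORC5Δ* chr13:21971401-21971923, with 27 and 87 (1.38). All 3 were called in the knockout and not in WT, and their GC skews were 0.95, 0.95 and 0.90. They entered the comparison because the knockout called them, so their folds are not independent of that call. The sign was not shared by the second highest origin of each line, with −0.69 in *ORC1Δ*, −0.93 in *ORC2Δ* and −0.67 in *ORC5Δ*. Over the whole chromosome the 62 origins with an absolute skew of at least 0.6 stood at a median of 0.56 in *ORC1Δ*, with 56 above 0. Of the 62, 29 were on the WT list, and the rest entered through the *ORC1Δ* call. Those of the other autosomes had 0.57, so this held for origins in general. In *ORC2Δ* the medians were 0.30 (56 origins) and 0.47, and in *ORC5Δ* 0.37 (49 origins) and 0.32.

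Of 20 replication, repair and cell cycle genes on chr13, 5 held a WT origin in the gene body and 3 had one within 2 kb of the start. BRCA2 and RB1 had none in WT, *ORC2Δ* or *ORC5Δ*, and in *ORC1Δ* 3 and 2 origins were called in them. Over these, BRCA2 had 172 WT and 298 *ORC1Δ* reads (log2 fold 0.73, 0.46 to 1.01) and RB1 89 and 170 (0.87, 0.49 to 1.26). These origins are in the table because *ORC1Δ* called them, and the folds are not independent of that call. The distal genes TFDP1 and CUL4A, a scaffold of cullin ubiquitin ligases that act on licensing factors, had −0.77 and −0.91 in *ORC2Δ* and were the only 2 of the 8 genes with origins there at 1.5-fold or more. In *ORC1Δ* 6 of 8 genes with origins were above 0 (median 0.20), and in *ORC5Δ* 4 of 8 (−0.02).

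Of 12 developmental transcription factor genes, 8 had a WT origin within 2 kb of the start. The numbers were 3 of 12 genes of the arm gained in colorectal cancers and 2 of 19 long genes of gene-poor parts. The lists were chosen by hand, and KLF12 stands in the first and the second. POLR1D and LNX2 of the second share their start origin, so the numbers are not ranked. The share over all coding genes was not computed for any of the gene lists, so nothing is read from their counts of genes with origins. The most read start was that of DACH1, with 70.0 RPM in WT and 61.1 in *ORC1Δ*, 68.2 and 62.9 in *ORC2Δ*, and 65.7 and 60.3 in *ORC5Δ*. The log2 folds of −0.19, −0.12 and −0.12 all had intervals that included 0. The only distal member was SOX1, a neural fate transcription factor gene, whose start origin had 21.8 RPM in WT and 9.73 in *ORC2Δ* (−1.17, −1.59 to −0.76), 24.6 and 14.5 in *ORC1Δ* (−0.76, −1.14 to −0.39), and 21.4 and 18.5 in *ORC5Δ* (−0.21, −0.54 to 0.13). The median over gene bodies with origins was −0.32 in *ORC1Δ* (6 genes), −0.00097 in *ORC2Δ* (7) and −0.01 in *ORC5Δ* (8). Folds of genes and gene lists, here and in the other paragraphs, were not matched for GC content. In *ORC1Δ* origins of 65% GC or more on the other autosomes had a median of −0.32. The list medians are therefore not compared with each other.

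Among genes of the gained arm, KLF5, an intestinal epithelial transcription factor, CDX2, the intestinal homeobox factor, CDK8, a Mediator kinase, and MIR17HG, host of the miR-17 cluster, had no WT origin in the gene body or at the start. MTUS2, a microtubule-associated protein gene of 686 kb, held 2 origins on the WT list, and the *ORC1Δ*, *ORC2Δ* and *ORC5Δ* lists placed 17, 5 and 10 there. Its reads in *ORC1Δ* gave a summed log2 fold of 0.32 (0.22 to 0.43). Apart from the 2 on the WT list, the MTUS2 origins entered that comparison because *ORC1Δ* called them. The fold is therefore not independent of the call. The MTUS2 reads in *ORC2Δ* gave 0.03 (−0.13 to 0.19), and those in *ORC5Δ* 0.0016 (−0.12 to 0.12). The list medians were −0.02, −0.08 and −0.09. Of the 19 long genes, 6 held a WT origin, 17 origins in all, of which MYO16, an unconventional myosin gene, held 6. PCDH9, KLHL1 and GPC5, a glypican gene of 1475 kb, held none in any line. The medians of the long genes with origins were 0.11 in *ORC1Δ* (10 genes), −0.09 in *ORC2Δ* (8) and −0.09 in *ORC5Δ* (10), and none reached 1.5-fold.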

How the data were processed

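SNS-seq was analysed for WT, *ORC1Δ*, *ORC2Δ* and *ORC5Δ* HCT116 p53−/− cells, grouped by the genotype in the labels. Per the submitters' processing notes, reads were handled with Trim Galore, Bowtie, MACS2 and bedtools on GRCh38. The authors called peaks per replicate, kept peaks found in both replicates as origins, treated peaks closer than the median interpeak distance as clusters, and merged replicates to count reads per origin. The deposited count tables hold whole, unnormalised read counts for WT and 1 knockout line each, and the deposited origin lists hold positions only. The tool used for counting and the treatment of duplicate reads are not given in the sources used here.

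From these, RPM was computed over all origins of a table and line, and log2 folds were taken over WT. The tables have 42421, 44447 and 46722 origins, of which those on other contigs were kept in the totals and left out of the results. The design foresaw values without tests, because each line has 1 merged count. Origins up or down by 1.5-fold were counted. GC content came from hg38, genes from GENCODE release 44, and GC matching used bins of 2 percentage points. Intervals are 95% Clopper–Pearson for read ratios, Wilson for shares, Poisson for densities and binomial order statistics for medians. Python 3.11.15, numpy 2.4.6, pandas 2.3.3, scipy 1.17.1 and pysam 0.24.0 were used, with edgeR 4.0.16 in R 4.3.3 for TMM factors alone. The code was tested on simulated data.

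The chromosome and the gene lists were chosen with earlier results of these data known. Origins named are the 3 with most WT RPM, the 3 highest and 3 lowest by their least fold over the lines (same direction, at least 100 reads in each table), the 3 widest WT origins, and those within 2 kb of a listed gene's start. Steps named have the highest or lowest WT density or fold. Other origins, among them the extremes of each line and those beside the step in *ORC2Δ*, were named after their values were seen, and a few items are not reported here. Alternatives were other scalings, read minimums, folds, windows and GC matching.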

Additional observations from a re-analysis of the deposited data

Results flagged for a closer look

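The summed reads of chr13 moved in opposite directions in 2 lines, with a log2 fold over WT of 0.11 in *ORC1Δ* and −0.15 in *ORC2Δ*. The difference between the lines was not tested, since each line has 1 merged count, and both folds share the WT libraries.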

How the results depend on the processing

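No paired analysis was possible because the deposited tables merge the replicates, and for the same reason no replicate could be left out. Of 121 alternative values for 21 results, 77 moved by less than the interval of the value or, for counts, by less than 1.5 times, 42 moved further and 2 changed sign. The 77 include every value with at least 50 reads, a minimum that gave back the reported value each time and so checks nothing. Those without the distal segment and those for the proximal and distal segments were chosen after seeing the data.

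The log2 fold of summed reads in *ORC1Δ* was 0.12 with median-of-ratios size factors, 0.12 with TMM factors, 0.15 over origins called in both lines, 0.0886 over origins with at least 200 reads and 0.15 without the distal segment. In *ORC2Δ* the same settings gave −0.11, −0.11, −0.14, −0.17 and, with the sign changed, 0.0051. In *ORC5Δ* origins called in both lines gave 0.0265. The difference from the other autosomes was 0.15 in *ORC1Δ* without GC matching, −0.0052 in *ORC2Δ* without the distal segment and 0.0095 in *ORC5Δ* over origins called in both lines, a change of sign.

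Counts of calls followed the threshold by construction. At 2-fold, at a milder log2 threshold of 0.32 and with at least 200 reads, upregulated origins numbered 25, 274 and 26 in *ORC1Δ*, 12, 92 and 11 in *ORC2Δ*, and 3, 81 and 10 in *ORC5Δ*. Downregulated origins numbered 2, 90 and 8 in *ORC1Δ*, 36, 211 and 68 in *ORC2Δ*, and 1, 64 and 2 in *ORC5Δ*. Without the distal segment, 12 origins were downregulated in *ORC1Δ*, 15 in *ORC2Δ*, and 14 upregulated in *ORC5Δ*.

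The WT density was 4.67 per Mb over the full chromosome length, 2.66 for wide origins alone and 4.23 without the distal segment. Steps moved by 2.5 Mb gave 54.9 per Mb for the highest step, and 5 Mb windows gave 0.923 for the ratio to GC-matched windows. The proximal median in *ORC1Δ* was 0.19 with at least 200 reads, 0.14 over origins called in both lines and 0.15 after GC correction. The distal median in *ORC2Δ* was −0.62 over origins called in both lines. Where construction does not give it, the cause was not tested. With a median of 98 to 100 WT reads per origin, single origins are known to counting error only.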
